A study of Homo sapiens with 8 samples.

Results

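A set of 10 genes that read out or restrain signalling through the kinase ERK were followed in HEK293 cells, an established human line from embryonic kidney: the PEA3-group ETS transcription factor genes ETV1, ETV4 and ETV5, the phosphatase genes DUSP4 and DUSP6, the Sprouty genes SPRY1, SPRY2 and SPRY4, and the SPRED genes SPRED1 and SPRED2. They are 10 of the 60606 genes in the deposited table. The members were chosen by gene symbol with the fold changes of this same comparison already known, so their values describe these libraries and test nothing. Of the 10 members, 7 passed the filter on low counts of the fit over all genes, DUSP6 and SPRY4 had too few counts for it, and ETV4 was listed at 0 in every library.

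All cells were transfected with a lipid reagent and 50 nM of a small RNA mimic and collected 48 hours later. In the tDR group the mimic copied a tRNA-derived RNA (tDR) from the 3' side of tRNA-Asp-GTC, and the scramble group received a scrambled mimic. Each group held 4 libraries of total RNA, and there was no untransfected group. The labels name 1 line and do not say whether libraries came from separate cultures, so the spread between libraries may be technical.

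Receptor tyrosine kinases such as the FGF receptors switch on RAS, which drives the kinases RAF, MEK and ERK in turn. Active ERK raises the transcription of PEA3-group ETS factors, in part by removing the repressor CIC from their genes, and also of its own inhibitors. DUSP6 and DUSP4 take phosphate off ERK, in the cytoplasm and in the nucleus respectively, while Sprouty and SPRED proteins act higher up, at the steps from receptor to RAF. RNA of these genes is therefore often used as a readout of ERK output.

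CIC binds octamers of the form TGAATGAA, TGAATGGA, TCAATGAA or TCAATGGA. These were searched on both strands in RefSeq promoter windows (build GRCh38.p14) of 250 bases before and 50 bases after a start, of which 16 matched 7 of the members; ETV4, ETV5 and DUSP4 were not matched. The octamer was found in 1 of the 6 windows of ETV1 and in the single window of DUSP6, and in 3.77% of all 35116 windows. The stretches that hold it are shown because ETV1 and DUSP6 are the members with a match. Capitals mark the octamer, which in DUSP6 reads on the other strand. The ETV1 stretch is the 250 bases upstream of its farthest start, on the minus strand at chr7:13991426-13991675. The DUSP6 stretch is 30 bases on the minus strand at chr12:89352507-89352536, and a second DUSP6 match, also on the other strand, begins at base 2 after the RefSeq start. Both DUSP6 matches lie inside the annotated span of the gene used below, which begins at base 89353271 on the minus strand.
ETV1: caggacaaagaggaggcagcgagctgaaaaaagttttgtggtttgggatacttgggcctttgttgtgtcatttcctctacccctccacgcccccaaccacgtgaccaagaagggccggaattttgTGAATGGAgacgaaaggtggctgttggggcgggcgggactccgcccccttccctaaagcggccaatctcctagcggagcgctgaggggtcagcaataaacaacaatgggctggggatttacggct
DUSP6: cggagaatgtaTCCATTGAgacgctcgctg
The octamer CCGGAAGT, a strong site for ETS proteins themselves, was in none of the 16 windows of the members and in 4.14% of all windows. A match or its absence in these windows says nothing about binding in these cells.

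Total counts ranged from 5848305 to 10557740 per library. What a count covers was read from the table itself. Of 845 protein-coding genes whose whole span lies within genes on the opposite strand, 830 (98.2%) were at 0 in all 8 libraries, and of 329 genes wholly within spans on the same strand 310 (94.2%) were at 0. Among 6922 protein-coding genes that overlap no other gene, 5.62% were at 0. Where a gene shares its whole span with another gene, a 0 in this table therefore gives no level and sets no upper limit. Counts also came from spans with few transcripts: 267 olfactory receptor genes that overlap no other gene, a family with little expression outside the nose, held 20.4 to 27.4 counts per Mb of span, scaled to library depth, in the scramble libraries and 35.0 to 38.4 in the tDR libraries (two-sided exact permutation test, p = 0.0286, which is the lowest value possible with 70 assignments). That density times a gene's span is called its expected background below. It is an average, and it exceeded the observed counts of some genes.

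**Figure D1:**
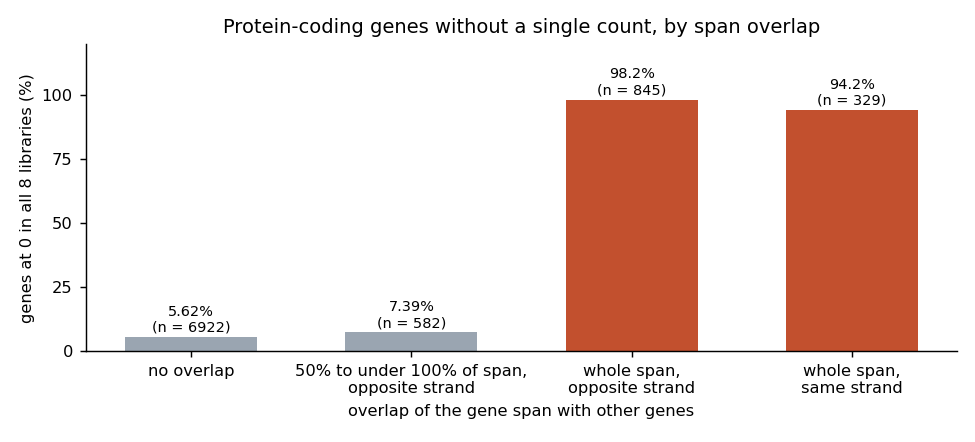
Bars give the percentage of protein-coding genes with 0 counts in all 8 libraries, by how much of the gene span (horizontal axis) is shared with other annotated genes, and n is the number of genes. Genes wholly inside other spans were at 0 in 98.2% (opposite strand) and 94.2% (same strand) of cases, against 5.62% with no overlap. The share was 7.39% for genes largely but not wholly inside spans on the opposite strand only. Partial overlap on the same strand is not shown.

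Of 8 HEK293 markers 7 were tested, and they moved with the groups in both directions. With the tDR 3 were called lower and 2 higher, beside 11.4% and 12.8% of all tested genes. NEFM went from 230 to 173 CPM, NEFL from 112 to 81.9 CPM and LIN28B from 165 to 141 CPM, whereas PAX2 went from 15.9 to 21.6 CPM and KRT8 from 7.54 to 11.6 CPM. VIM, at 155 and 157 CPM, and KRT18, at 30.0 and 33.0 CPM, were not called. The LIN28B call ended with scaling to library size alone, and the PAX2 call with offsets for gene length and GC content. SOX2, whose whole span is shared, was at 0. The 8 markers summed to 686 to 741 CPM in the scramble and 599 to 650 CPM in the tDR libraries. Markers of blood cells summed to 3.18 to 5.14 CPM in the scramble and 3.22 to 5.56 CPM in the tDR libraries. Endothelial markers summed to 5.26 to 8.11 and 12.2 to 14.1 CPM, with an expected background of 165% of the PECAM1 counts in the scramble and 79.7% in the tDR libraries. Fibroblast markers, mostly COL1A1, summed to 16.4 to 21.6 and 27.7 to 31.2 CPM. Hepatocyte and muscle markers stayed at or under 1.23 CPM. The part of these markers in the results was not tested.

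ETV5 showed the largest difference between the groups among the 7 members tested. ETV5 (chromosome 3, 186046308 to 186110318) encodes an ETS activator that ERK signalling switches on. Its read counts were 18, 21, 12 and 20 in scramble replicates 1 to 4 and 56, 47, 61 and 66 in tDR replicates 1 to 4. In CPM, the count divided by the TMM-scaled library size and multiplied by 1e6, the scramble libraries stood at 1.97, 2.57, 1.91 and 1.97 and the tDR libraries at 9.48, 6.44, 7.91 and 6.92. Each tDR library lay above each scramble library, as was so for 11.8% of all tested genes. Within the scramble group replicates 1, 3 and 4 were close together. The means were 2.103 ± 0.312 and 7.69 ± 1.34 CPM (SD, n = 4), and the fitted log2 fold change was 1.85 ± 0.26 (SE), a 3.61-fold difference.

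Much of the low ETV5 signal in the scramble cells was at the level of the expected background. That background came to 13.5, 14.8, 9.24 and 13.8 counts in scramble replicates 1 to 4, in all 72.3% of the ETV5 counts, and to 13.1, 17.5, 18.2 and 21.4 in the tDR replicates, 30.5% of the counts. Above it stood 4.45, 6.22, 2.76 and 6.20 counts with the scramble and 42.9, 29.5, 42.8 and 44.6 with the tDR. The groups did not overlap on this scale either. With background subtracted the fitted log2 fold change was 3.28 ± 0.42 (SE), so the size of the ETV5 difference depends on how much of the scramble signal is taken as background. Over the part of the span that no other gene shares, it was 2.90.

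ETV5-AS1 and DGKG share part of the ETV5 span. ETV5-AS1, wholly inside ETV5 on the opposite strand, was at 0 in all libraries, which gives no level. DGKG, which overlaps the ETV5 start on the same strand and encodes a diacylglycerol kinase, had 64, 67, 38 and 57 counts with the scramble and 68, 78, 108 and 115 with the tDR. Its expected background was 54.3, 59.2, 37.0 and 55.3 and then 52.4, 70.3, 72.8 and 86.0, so most DGKG counts were at background level in both groups. Of the ETV5 span 89.5% is shared with no other gene.

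ETV1 (chromosome 7, 13891228 to 13991425), the second PEA3-group factor, had 69, 53, 28 and 55 counts with the scramble and 37, 58, 67 and 91 with the tDR. Its CPM were 7.55, 6.48, 4.45 and 5.40, and then 6.26, 7.94, 8.68 and 9.54. The groups overlapped, since tDR replicate 1 lay below scramble replicates 1 and 2. The means were 5.97 ± 1.34 and 8.11 ± 1.39 CPM (SD, n = 4), a log2 fold change of 0.44 ± 0.20 (SE). Expected background made up 39.2% of the ETV1 counts in the scramble group and 43.5% in the tDR group, and the log2 fold change with background subtracted was 0.40.

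ETV4 (chromosome 17, 43527844 to 43579620), the third factor, was at 0 in all 8 libraries. Its whole span lies inside the annotated span of DHX8, an RNA helicase gene on the opposite strand with 648 to 1205 counts per library. ETV4 is thus among the genes for which these counts give no level, and nothing can be said here of its response to the tDR.

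**Figure D2:**
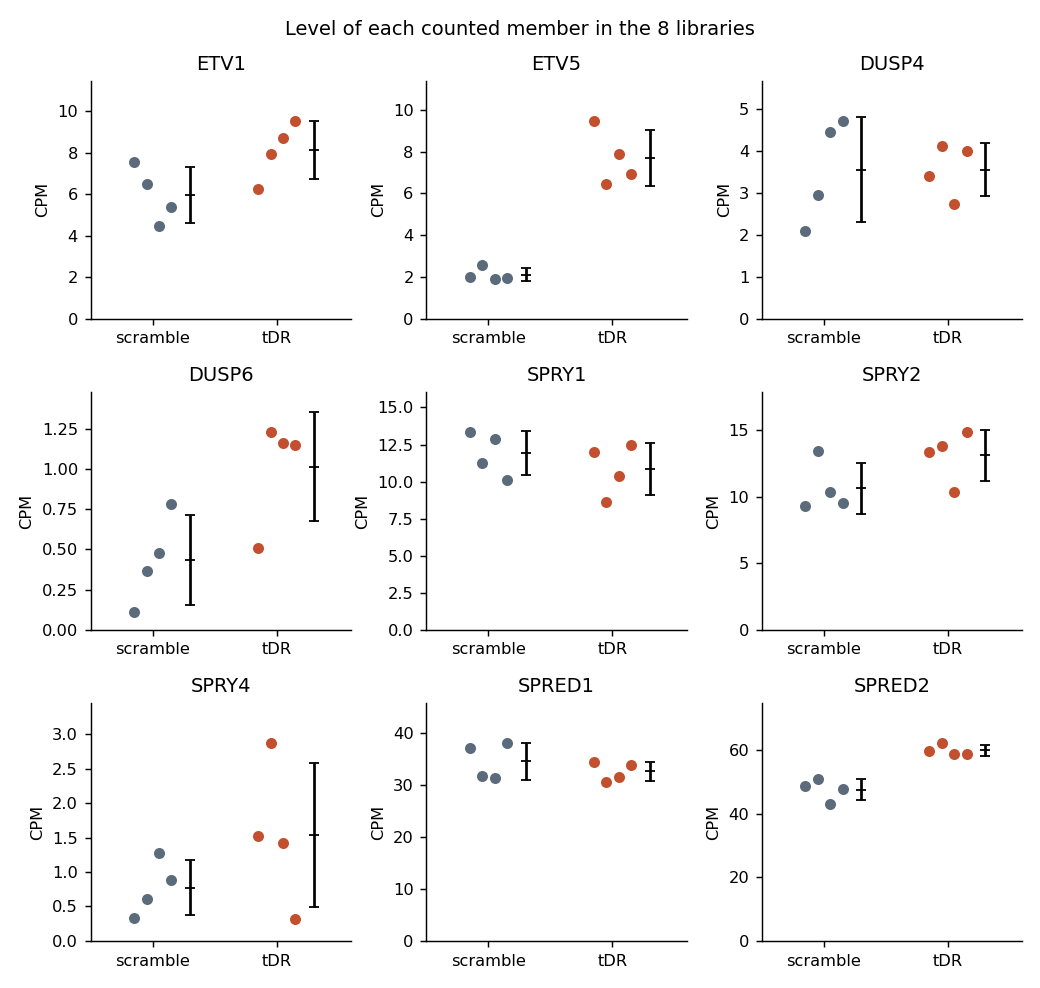
Each panel shows 1 member that had counts, with CPM on a vertical axis that starts at 0, 1 point per library and the mean ± SD of 4 libraries in black. The groups are apart for ETV5 (at most 2.57 against at least 6.44 CPM) and SPRED2 (at most 50.8 against at least 58.6 CPM) and overlap in the other panels. Of all 17184 tested genes, 11.8% had every tDR library above every scramble library.

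The phosphatase genes were thinly counted. DUSP4 (chromosome 8, 29333064 to 29350668), which encodes a nuclear ERK phosphatase, had 19, 24, 28 and 48 counts with the scramble and 20, 30, 21 and 38 with the tDR. In CPM these were 2.08, 2.94, 4.45 and 4.72, and then 3.39, 4.11, 2.72 and 3.98. The tDR libraries fell inside the range of the scramble libraries, with means of 3.55 ± 1.25 and 3.55 ± 0.636 CPM (SD, n = 4). The log2 fold change was 0.01 ± 0.29 (SE), and its sign turned in 10 of 18 alternative analyses.

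DUSP6 (chromosome 12, 89347232 to 89353271), the cytoplasmic ERK phosphatase and often the most sensitive ERK readout, had 1, 3, 3 and 8 counts with the scramble and 3, 9, 9 and 11 with the tDR. In CPM the scramble libraries stood at 0.1095, 0.367, 0.477 and 0.786 and the tDR libraries at 0.508, 1.233, 1.166 and 1.153. The tDR replicates 2, 3 and 4 lay above the scramble range, and tDR replicate 1 lay inside it. With no filter on low counts the log2 fold change was 1.17 ± 0.65 (SE). An antisense gene, AC024909.2, covers 37.4% of the DUSP6 span and held 0 or 1 counts in each library, so reads from that part may be missing from both genes. With 15 counts over the scramble and 32 over the tDR libraries, the DUSP6 level in these data is poorly known.

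Among the Sprouty genes, whose proteins restrain RAS activation downstream of receptors, SPRY1 (chromosome 4, 123396795 to 123403760) and SPRY2 (chromosome 13, 80335976 to 80340951) were the better counted. SPRY1 stood at 13.4, 11.3, 12.9 and 10.1 CPM with the scramble and at 12.0, 8.63, 10.4 and 12.5 CPM with the tDR. Its groups overlapped widely, and the log2 fold change was -0.12 ± 0.16 (SE). SPRY2 stood at 9.31, 13.5, 10.3 and 9.53 CPM and then at 13.4, 13.8, 10.4 and 14.9 CPM. Scramble replicate 2 lay among the tDR libraries, and the log2 fold change was 0.31 ± 0.16 (SE). Both genes are short and overlap no other gene, and expected background was at most 2.30% of their counts in either group.

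SPRY4 (chromosome 5, 142310427 to 142326455) had 3, 5, 8 and 9 counts with the scramble and 9, 21, 11 and 3 with the tDR. The tDR group held both the highest library, replicate 2 at 2.88 CPM, and the lowest, replicate 4 at 0.315 CPM. With no filter on low counts the log2 fold change was 0.95 ± 0.53 (SE), and without tDR replicate 2 it was 0.45. Expected background was 51.5% of the scramble counts and 40.0% of the tDR counts. Its antisense neighbour SPRY4-AS1, which overlaps the SPRY4 start, had 34 to 97 counts in the scramble and 73 to 140 in the tDR libraries, of which 50.0 to 80.0 and 70.9 to 116 were expected as background.

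The SPRED genes, whose proteins hold RAS in check together with neurofibromin, were the best counted members. SPRED2 (chromosome 2, 65310851 to 65432637) had 445, 415, 270 and 485 counts with the scramble and 353, 454, 452 and 560 with the tDR, or 48.7, 50.8, 42.9 and 47.6 against 59.8, 62.2, 58.6 and 58.7 CPM. All tDR libraries lay above all scramble libraries, as for 11.8% of all tested genes, and the tDR libraries were close together. The means were 47.5 ± 3.33 and 59.8 ± 1.67 CPM (SD, n = 4), a log2 fold change of 0.33 ± 0.08 (SE) or 1.25-fold. Expected background was 6.05% and 7.35% of the counts, and the log2 fold change was 0.37 with background subtracted and 0.23 with offsets for gene length and GC content.

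SPRED1 (chromosome 15, 38252326 to 38357249) had 339, 259, 197 and 388 counts with the scramble and 203, 224, 244 and 323 with the tDR. In CPM these were 37.1, 31.7, 31.3 and 38.1, and then 34.4, 30.7, 31.6 and 33.9. The groups overlapped, and the log2 fold change was -0.09 ± 0.10 (SE). The SPRED genes thus differed from each other in these libraries, SPRED2 being apart between groups and SPRED1 not; that difference was not tested.

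**Figure D3:**
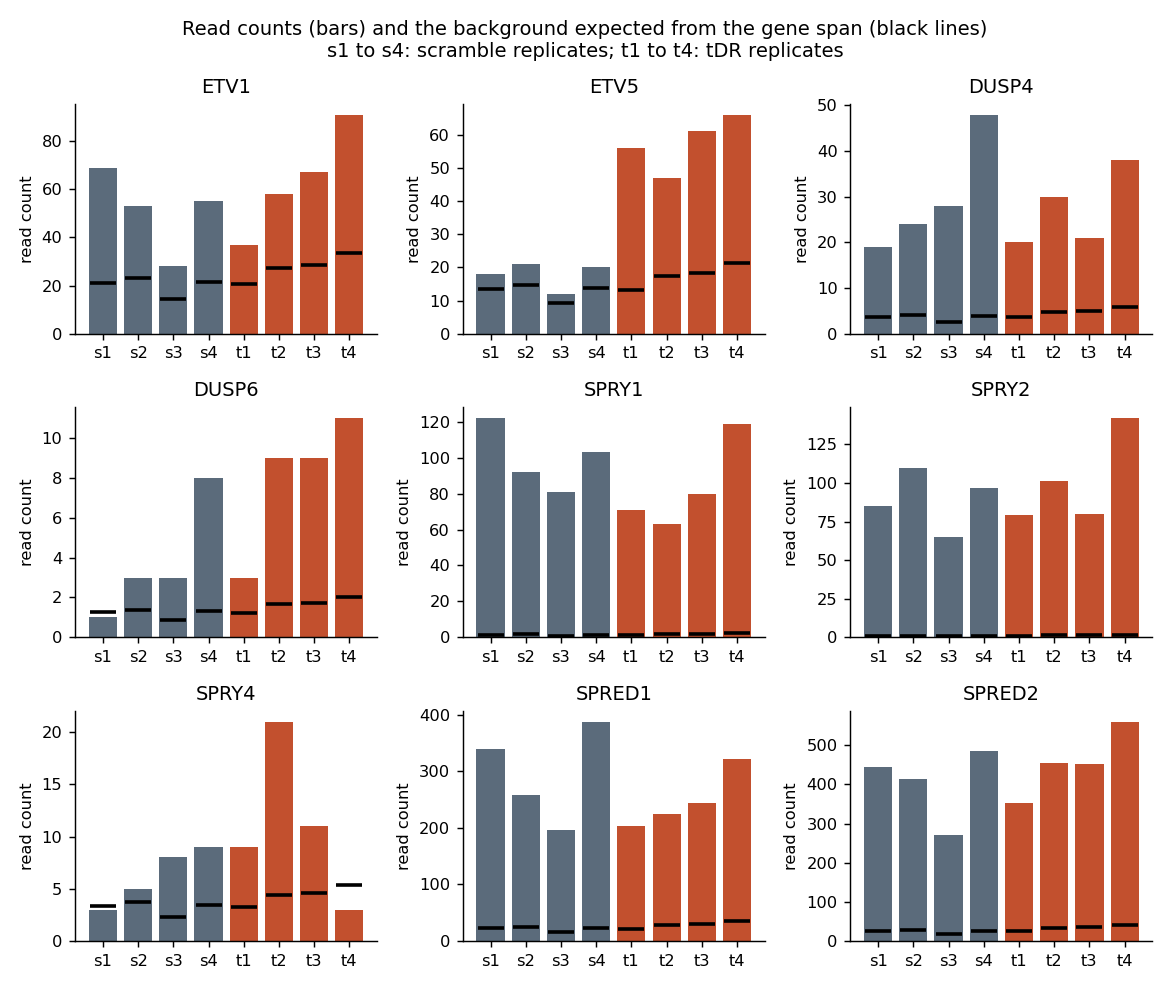
Bars give the read count of each member in scramble replicates 1 to 4 (s1 to s4) and tDR replicates 1 to 4 (t1 to t4), and black lines the background expected from the gene span. ETV5 stands just above its line in the scramble libraries (12 to 21 counts against 9.24 to 14.8) and well above it in the tDR libraries (47 to 66 against 13.1 to 21.4), while SPRY1, SPRY2, SPRED1 and SPRED2 stand far above it throughout.

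In the fit over all 17184 tested genes (quasi-likelihood F test of edgeR, p adjusted by Benjamini-Hochberg, threshold 0.05), 2 of the 7 tested members were called higher, ETV5 and SPRED2, beside 12.8% of all tested genes, and 0 were called lower, beside 11.4%. Because the comparison had been seen when the members were picked, nothing is read from that count. The 7 members had a median log2 fold change of 0.31, beside 0.02 over all tested genes. Over all tested genes 2206 were higher and 1962 lower. These became 3295 and 907 when only library size was used for scaling, and 1500 and 4266 with offsets for gene length and GC content. ETV5 and SPRED2 were called higher under both, and ETV1 also under the first, where it only just met the threshold. The median log2 fold change of all genes was 0.10 under the first and -0.09 under the second. Of tested genes with over 50% expected background, 1036 of 2732 were called higher and 2 lower. Of those with 10 to 50%, 457 of 3177 were called higher and 32 lower. Over all 8 libraries ETV5, ETV1 and DUSP4 belong to this middle class. Of tested genes with up to 10%, 513 of 9906 were called higher and 1842 lower.

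**Figure D4:**
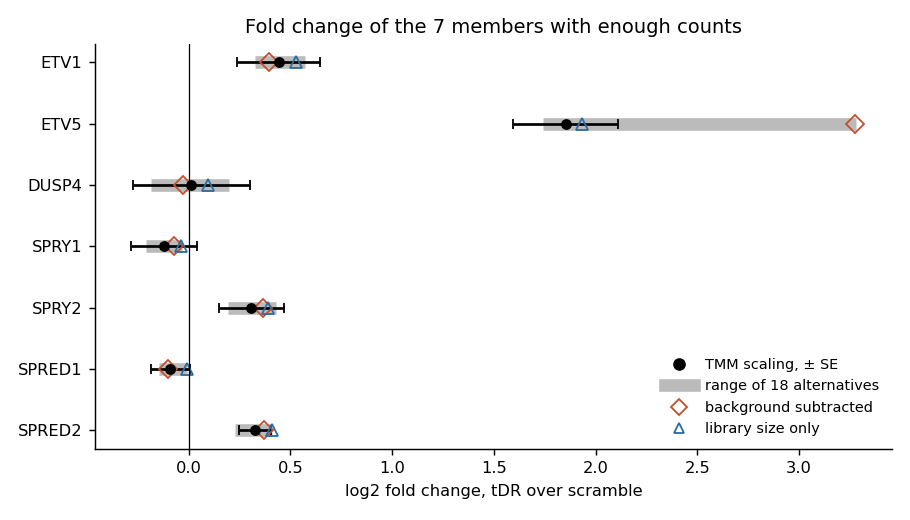
Points give the fitted log2 fold change of the 7 tested members with its SE, grey bars the range over 18 alternative analyses, diamonds the value with background subtracted and triangles that with scaling to library size alone. ETV5 lies at 1.85 and reaches 3.28 with background subtracted, SPRED2 lies at 0.33, and the bar of DUSP4 spans 0.

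The members differed widely in level. Per kb of annotated exon, the scramble means in CPM were 9.22 for SPRED2, 4.18 for SPRED1, 3.51 for SPRY2, 3.00 for SPRY1, 0.621 for ETV1, 0.489 for DUSP4, 0.362 for ETV5, 0.118 for SPRY4 and 0.0939 for DUSP6. In this order the SD ranges overlapped between SPRED1 and SPRY2, SPRY2 and SPRY1, ETV1 and DUSP4, DUSP4 and ETV5, and SPRY4 and DUSP6, and did not between the other neighbours. With the tDR, ETV5 stood at 1.32 CPM per kb of exon, above ETV1 at 0.843. The order depends on the length used: per kb of the whole gene span, SPRY2 (2.14) and SPRY1 (1.71) came first, before SPRED2 (0.390) and SPRED1 (0.329).

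A rule named the genes whose 8 values, centred on their own mean, came nearest to those of a member on the log2 scale. For ETV5 these were TCERG1L, LINC01411 and LINC01169, with root mean square differences of 0.255 to 0.258 over 8 libraries among 12440 genes. LINC01411, for instance, had a mean of 8.12 CPM with the scramble and 21.5 CPM with the tDR. Their expected background came to 130%, 40.2% and 77.5% of their counts. For DUSP6 they were ITIH5, MUC16 and ZC3H12A-DT, at 0.156 to 0.186. DUSP6 itself stood at or below 1.233 CPM, where the 0.5 CPM added before the log2 narrows differences between libraries. The log2 fold changes of the 3 genes were 0.714 to 0.787. Expected background was 51.6% of the ITIH5 counts and 60.7% of the MUC16 counts, and was not available for ZC3H12A-DT. No such genes can be given for ETV4.

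Around the members, 8 lists of pathway genes held 154 entries, all in the table, of which 128 were tested. The lists were also chosen with earlier results of these data known, and genes were named from them mostly by smallest p. Their calls and adjusted p thus describe these libraries and test nothing. Each count of calls below is to be read beside all tested genes, of which 12.8% were called higher and 11.4% lower. Other dual-specificity phosphatases of the MAP kinases had 4 higher and 0 lower of 10 tested, with a median log2 fold change of 0.07. With offsets for gene length and GC content 2 were higher and 1 lower. DUSP8, a phosphatase of the stress kinases, rose from 10.4 ± 0.392 to 14.97 ± 2.23 CPM (SD, n = 4; log2 fold change 0.53, edgeR adjusted p = 0.00623), and its call ended without tDR replicate 4 and with offsets for gene length and GC content. DUSP5, a nuclear ERK phosphatase that ERK itself induces, rose from 4.32 ± 0.653 to 7.39 ± 1.23 CPM (0.78, edgeR adjusted p = 0.00651). DUSP2, another nuclear phosphatase, rose by 0.71, a call that ended without scramble replicate 3 or tDR replicate 3. DUSP7 rose by 0.23, a call that ended in 13 of 18 alternative analyses. Without tDR replicate 3 or tDR replicate 4 the list held 2 calls. DUSP1 was at 0 with its whole span shared.

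Of 13 other feedback genes and brakes on RAS tested, 0 were higher and 1, PEBP1, was lower, beside 12.8% and 11.4% of all tested genes. The list held more calls with offsets for gene length and GC content. PEBP1, which encodes an inhibitor of RAF, fell from 139 ± 10.4 to 116 ± 6.10 CPM (SD, n = 4; log2 fold change -0.26, edgeR adjusted p = 0.000755). RASA2, at -0.15, SPRED3, at 0.44, and ERRFI1, at 0.17, did not pass. Of 27 genes of the cascade from RAS to ERK and its kinase targets, 1 rose and 2 fell, and the median was 0.01. This split turned with the scaling: it was 4 higher and 0 lower with library size alone, and 1 higher and 9 lower with offsets for gene length and GC content. MKNK2, a kinase that ERK activates and that phosphorylates eIF4E, rose from 68.8 ± 4.16 to 103 ± 5.28 CPM (0.58, edgeR adjusted p = 8.22e-10). YWHAB, a 14-3-3 protein gene and among those that fell, fell by 0.15 on the log2 scale, a call that ended with scaling to library size alone, with background subtracted and without tDR replicate 3 or 4. Without scramble replicate 1 the list held 5 calls. MRAS, at 0.25, did not pass.

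Other genes that ERK signalling is known to induce went both ways. Of 21 tested, 5 rose and 2 fell, beside 12.8% and 11.4% of all tested genes, and the median was 0.13. With offsets for gene length and GC content the split was 5 higher and 5 lower, and with library size alone 5 and 1. EGR1, an immediate early transcription factor gene, rose from 3.07 ± 0.972 to 8.80 ± 1.31 CPM (SD, n = 4; log2 fold change 1.48, edgeR adjusted p = 2.81e-06). FOSL2, which encodes an AP-1 subunit, rose by 0.59, and PHLDA2 by 1.07, a call that ended without tDR replicate 1 or 3. MYC fell from 56.1 ± 1.35 to 42.7 ± 3.72 CPM (-0.39, edgeR adjusted p = 0.000223). FOS (1.07), KLF10 (0.52) and HMGA2 (-0.18) complete the count and were named after their values were seen. Without tDR replicate 1 or tDR replicate 3 the list held 4 calls in place of 7. JUNB and TNC were at 0 with their whole span shared.

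Receptors and their adaptors had 8 higher and 0 lower of 19 tested, beside 12.8% and 11.4% of all tested genes. Their median was 0.19. With offsets for gene length and GC content the split was 4 higher and 2 lower, and with library size alone 10 and 0. FGFR3, a receptor for FGFs, rose from 56.2 ± 7.66 to 83.4 ± 9.89 CPM (SD, n = 4; log2 fold change 0.57, edgeR adjusted p = 2.99e-07), and ERBB2 rose by 0.33, at 0.14 and not passing with offsets for gene length and GC content. NTRK2 (0.70) and PDGFRB (1.18) were called higher too, but expected background was 78.6% and 71.8% of their scramble counts, and the NTRK2 call ended with background subtracted. PDGFRB did not pass the filter once background was subtracted, and it lost its call without scramble replicate 4 or tDR replicate 2. The list held 5 calls without scramble replicate 3 or tDR replicate 2 and 4 without tDR replicate 1. Of 12 tested ligands 3 were called higher, FGF12 (0.35), TGFA (0.79) and NRG1 (0.41), with a median of 0.10. With background subtracted 10 ligands were left to test and 0 were called: FGF12 and TGFA lost their calls, and NRG1 no longer passed the filter on low counts. With offsets for gene length and GC content 2 ligands were higher and 1 lower. Expected background was 50.6% of the scramble counts of FGF12, 59.2% of those of TGFA and 177% of those of NRG1. The FGF12 call ended without tDR replicate 3, that of TGFA without tDR replicate 4, and that of NRG1 without scramble replicate 4 or tDR replicate 2. FGF18, at 0.64, did not pass.

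The repressor CIC and genes that control the turnover of ETV proteins had a median of -0.10. Of 9 tested, 1 was higher and 2 lower, beside 12.8% and 11.4% of all tested genes. The split was 1 and 0 with library size alone or with background subtracted, and 0 and 5 with offsets for gene length and GC content. CIC, which represses PEA3-group genes until ERK signalling removes it, rose from 113 ± 17.3 to 143 ± 6.76 CPM (SD, n = 4; log2 fold change 0.34, edgeR adjusted p = 9.71e-05), and with offsets for gene length and GC content it was at 0.07 and did not pass. COP1, which encodes the ubiquitin ligase that marks ETV proteins for destruction, fell by 0.14, and its partner DDB1 fell by 0.13. The COP1 call ended in 8 of 18 alternative analyses and the DDB1 call in 6, background subtraction among both. TRIB1, at -0.21, did not pass. Leaving out scramble replicate 1 gave 5 calls for this list, and leaving out scramble replicate 4 or tDR replicate 4 gave 1.

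Of 17 tested ETS family genes outside the PEA3 group, 4 were called higher and 0 lower, beside 12.8% and 11.4% of all tested genes. Their median was 0.20. ERG (0.99) had an expected background of 131% of its scramble counts and did not pass the filter once background was subtracted. ETV3L (1.47) was low, at 0.785 ± 0.117 and 2.19 ± 0.435 CPM (SD, n = 4). Its counts were 7, 6, 6 and 7 with the scramble and 16, 12, 17 and 21 with the tDR. ETV3L passed the low-count filter only through the tDR libraries, so nothing is read from its call. ELF1 rose by 0.25 and ELF4 by 0.20, the first a call that ended with DESeq2 and without scramble replicate 2 or tDR replicate 4 and the second one that ended in 9 of 18 alternative analyses. Without scramble replicate 2 or tDR replicate 4 the list held 2 calls.

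**Figure D5:**
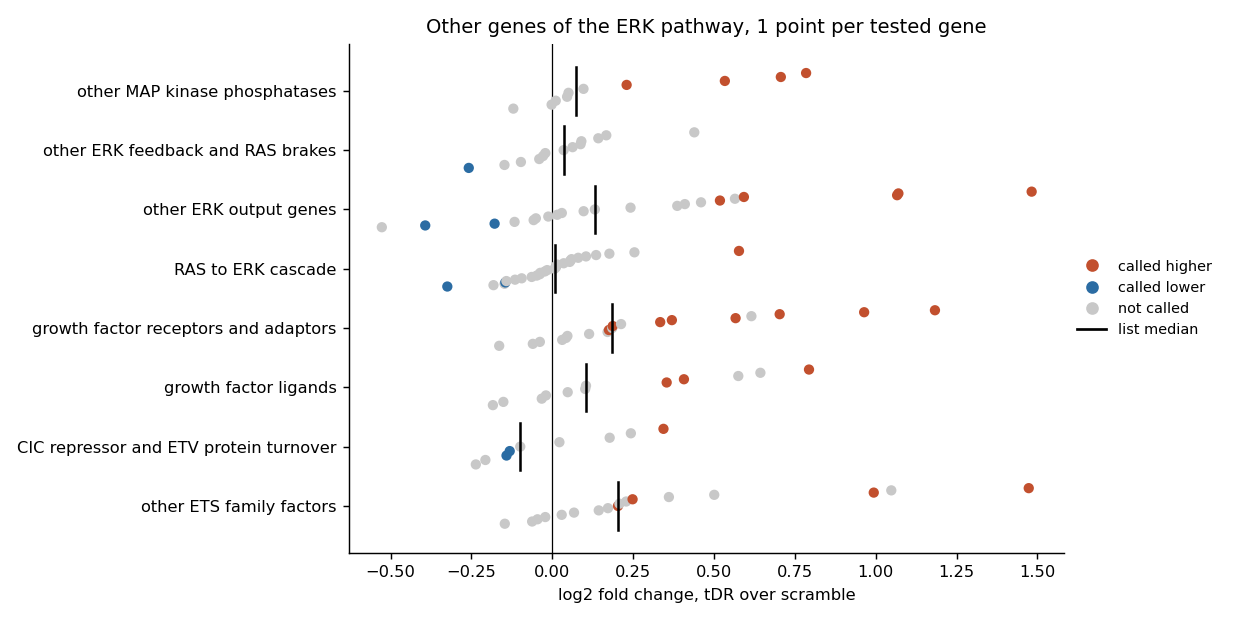
Each point is 1 tested gene of a pathway list, placed by its log2 fold change (horizontal axis, tDR over scramble), coloured by its call, with a black line at the list median. With TMM scaling, as plotted, receptors have 8 genes called higher and 0 lower (4 and 2 with offsets for gene length and GC content). Of all tested genes 12.8% were called higher and 11.4% lower. The RAS to ERK cascade lies close to 0 with a median of 0.01, and EGR1 is the farthest right of the ERK output genes at 1.48.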

How the data were processed

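The authors deposited 1 table of raw read counts, genes in rows and libraries in columns, which were matched to the labels by name. The submitters' processing notes list STAR 2.7.8a, featureCounts 2.0.2, cutadapt 2.10, DESeq2 1.30.1 and FastQC 0.11.9, and the builds GRCh38.p13 and hg38. The counting settings and the annotation release were not given in the sources used here. Per the labels' protocols the libraries came from a stranded total RNA kit. The members and lists were chosen with earlier results of these data known, so the adjusted p printed for their genes are descriptive. GENCODE release 29 on GRCh38 gave 1-based positions and spans and matched 53594 of 60606 genes (97.3% of counts).

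Groups were compared with edgeR 4.0.16 in R 4.3.3: TMM scaling, its low-count filter (17184 genes kept), a quasi-likelihood F test between the groups of 4 with no covariate, and Benjamini-Hochberg adjustment over all tested genes with a threshold of 0.05. SE were derived from the F statistic. Levels are CPM on TMM-scaled library sizes. Alternatives were DESeq2 1.42.0, other scalings and filters, a replicate block, background subtraction, offsets for length and GC content (loess; 92.0% of tested genes had both), and leaving out each library. The steps were tested on simulated data. Beside the members, the text names up to 4 genes per list with the smallest p, genes that overlap a member, and the 3 nearest genes by pattern (0.5 CPM added before the log2, mean log2 CPM over 2). A result that the rule for named genes would give is not reported here.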

Additional observations from a re-analysis of the deposited data

Results flagged for a closer look

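In 5 of 80 groups of 4 libraries, the value of 1 library lay far from the other 3 by Dixon's criterion, which chance meets in about 1 of 20 groups. For ETV5 scramble replicate 2 stood at 2.57 CPM and the others at 1.91 to 1.97 CPM. For DUSP6 tDR replicate 1 stood at 0.508 CPM and the others at 1.153 to 1.233 CPM. Scramble replicate 3 was high for PEBP1, at 154 CPM against 133 to 134 CPM. For TGFA scramble replicate 2 stood at 5.99 CPM against 3.63 to 3.97 CPM, and tDR replicate 4 at 10.1 CPM against 6.30 to 6.94 CPM.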

How the results depend on the processing

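Of the members tested, ETV5 and SPRED2 kept their direction and call in all 18 alternatives, with log2 fold changes of 1.74 to 3.28 and 0.23 to 0.41. ETV1 only just passed with scaling to library size alone (0.53) and passed in no other alternative. DUSP4, at 0.01, turned to -0.02 with DESeq2, -0.018 with no low-count filter, -0.026 with background subtracted and -0.024 over unshared span, to -0.12 with length and GC offsets and -0.11 with these and the replicate block, and ranged from -0.19 to 0.20 over left-out libraries. Higher genes numbered 2206, 1456 with DESeq2, 974 with background subtracted, 1037 over unshared span and 1402 with offsets and block. Lower genes numbered 1962, 907 with library size alone, 1082 and 1021 with the background subtractions, and 4266 and 4159 with offsets without and with the block. The CIC and turnover list went from 3 calls to 1 with library size alone or either background subtraction and 5 with offsets, with or without the block. The cascade went from 3 to 5 with DESeq2, and to 10 (1 higher, 9 lower) and 8 (1 and 7) with offsets without and with the block. Other brakes went from 1 to 3 with offsets, with or without the block, receptors from 8 to 5 with DESeq2 or background subtracted, ligands from 3 to 0 with either subtraction (10 tested in place of 12), and ETS genes from 4 to 7 with library size alone and 2 with DESeq2. Over left-out libraries the calls ranged from 1 to 5 for CIC and turnover, 2 to 5 for the cascade, 4 to 8 for receptors, 4 to 6 for output genes, 2 to 5 for ETS genes and 2 to 4 for phosphatases. The cause of these shifts was not tested. The replicate block alone gave 2040 higher and 1834 lower genes and left the members' calls as they were. For pairing, the log2 CPM of tested genes were taken as deviations from their group mean and correlated between scramble and tDR libraries. These correlations were -0.029 to 0.07 for same-numbered libraries and -0.078 to 0.059 for the others. The numbers were therefore not taken to pair the libraries. Subtraction over unshared span was added after the data were seen. Depth limits DUSP6 and SPRY4, and shared spans ETV4.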
